A study of Saccharomyces cerevisiae with 17 samples.

Results

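Genes that answered salt within 10 min and were lower again by 30 min made up a set of 103 of the 7126 features counted in budding yeast, Saccharomyces cerevisiae. They were chosen in cells that kept the exonuclease Xrn1 (Xrn1-WT). Counts were divided by DESeq2 size factors and averaged by group, and a feature was taken when its overall mean was at least 50 normalised counts, its 10 min mean was at least 3 times its 0 min mean and its 10 min mean was at least 2 times its 30 min mean, with 1 added to each mean. All 103 were among the 6195 features that passed a filter on low counts (edgeR's filterByExpr). The levels in Xrn1-WT cells chose the set, so they, and the differences between the arms, are given as a description with no test. The same changes in cells depleted of Xrn1 (Xrn1-AID), whose libraries the folds of the rule did not use, were tested. The overall mean in the rule did take in those libraries. A further 287 features rose at least 3-fold by the same rule but did not meet the fall, and are called the other early genes.

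Salt draws water out of a yeast cell. The kinase Hog1 answers by raising glycerol synthesis and uptake and by driving a burst of transcription through factors such as Hot1, Sko1, Msn2 and Msn4. The burst is known to be transient: as glycerol builds up, Hog1 is switched off, and transcripts made early are cleared. Xrn1 is the main cytoplasmic exonuclease that degrades mRNAs from the end that carried the cap, so the level of a transcript during the burst depends on synthesis and on decay.

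The 17 libraries were of poly(A)-selected RNA from 1 strain, BY25598, a MATa strain with the alleles can1-100, trp1-1, his3-11,15 and ade2-1 and a mutant LEU2 locus. The plant receptor OsTIR1 with a 9Myc tag stood under the ADH1 promoter at ura3-1 (marker URA3), and XRN1 carried an auxin-inducible degron (XRN1-AID, marker HIS) in every library. Xrn1-AID cells had 500 µM auxin for 30 min before salt. Xrn1-WT cells had the same degron and no auxin, and the labels name no solvent control, so effects of auxin itself and of Xrn1 loss cannot be told apart. Both arms were sampled without salt (0 min) and after 10 and 30 min in 0.4 M NaCl. There were 2 libraries of Xrn1-AID at 30 min and 3 of every other group. Whether replicates were separate cultures is not stated in the labels, and p-values measure the spread between these libraries, part of which may be technical.

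Libraries held between 13.9 and 30.4 M counts. Levels are counts per M counts (CPM) scaled by TMM, edgeR's trimmed mean of M-values. They are scaled shares of a library, so a change in total mRNA per cell would not show. XRN1 transcript lay between 34.1 and 70 CPM in the Xrn1-AID libraries and between 12.2 and 47.6 CPM in the Xrn1-WT libraries. Since a degron removes protein and not mRNA, the transcript is no check of the depletion. The 6 genes of MATa cells that were looked up were all present, from ASG7, at 4 CPM in Xrn1-AID cells at 30 min, to STE2, at 246 CPM at 0 min. Of 4 MATalpha genes, MF(ALPHA)1, MF(ALPHA)2 and STE3 were under 1 CPM in every group, while SAG1, the alpha-agglutinin, averaged 45, 25.2 and 20.8 CPM at 0, 10 and 30 min in Xrn1-AID cells and 19.5, 17.1 and 20 CPM in Xrn1-WT cells. Among the libraries, Xrn1-WT replicate 3 at 0 min stood farthest from its group (root mean square deviation 0.49 on the log2 scale), followed by Xrn1-WT replicate 2 at 0 min and replicate 2 at 10 min (0.42 each). The other 14 had 0.17 to 0.29.

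The genes rose and fell in Xrn1-AID cells as well. Their levels summed to 7067, 7724 and 7317 CPM at 0 min, to 61993, 58537 and 62945 CPM at 10 min and to 15755 and 15743 CPM at 30 min of salt in Xrn1-AID libraries. In Xrn1-WT libraries the sums were 6497, 6133 and 5921 CPM, then 52986, 52951 and 62284 CPM, then 25785, 16005 and 17323 CPM. On this TMM scale the 10 min libraries of each arm lay above every other library of that arm. As unscaled shares of counts, replicate 2 of Xrn1-WT at 10 min (3.128%) lay just under replicate 1 of Xrn1-WT at 30 min (3.204%). Replicate 1 of Xrn1-WT at 30 min was the highest of its group.

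**Figure D1:**
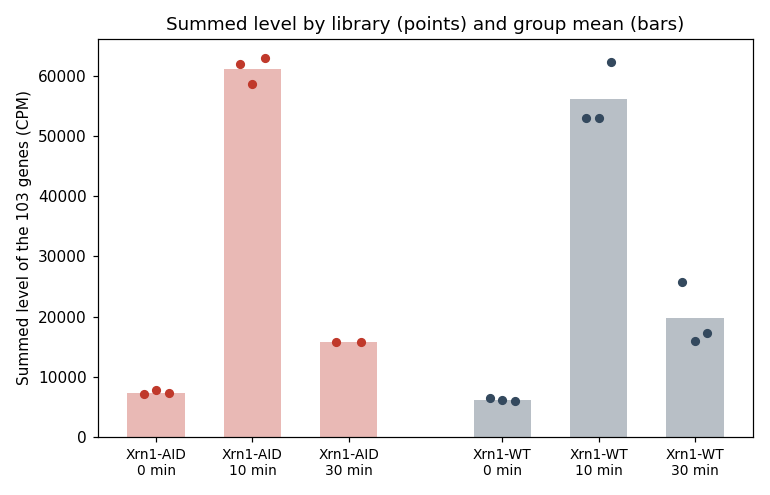
Summed level of the 103 genes in each library (points, CPM) and group means (bars) by arm and minutes of NaCl. In both arms the 10 min libraries, from 52951 to 62945 TMM-scaled CPM, stand above those at 0 min and 30 min.

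At 10 against 0 min in Xrn1-AID cells, 99 of the 103 genes rose, none fell and 4 were not called by edgeR's quasi-likelihood test (Benjamini-Hochberg adjusted p under 0.05). Of all tested genes 19.0% rose and 16.6% fell. The median log2 change was 2.69, against -0.03 over all tested genes and 2.50 over the other early genes. In 100 of the genes all 3 libraries at 10 min lay above all 3 at 0 min, which held for 27.7% of tested genes. The 4 not called were PFK27, RPR1, AI1 and YMR317W, named after their values were seen, and RPR1 was called when only the groups of that arm entered the fit (adjusted p = 0.0189). The lowest change of the 103 was 0.36. In Xrn1-WT cells the median log2 change at 10 min was 2.91, which the rule fixed in large part.

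At 30 against 10 min in Xrn1-AID cells, 86 of the 103 fell, none rose and 17 were not called. Of all tested genes 22.1% fell and 19.8% rose. The only positive changes were those of RPR1 (0.60 ± 0.66, adjusted p = 0.494) and AI1 (1.31 ± 1.66, adjusted p = 0.553). The median log2 change was -2.01, against 0.01 over all tested genes. Among the 287 other early genes, 59 fell and 61 rose, with a median of 0.12. In 97 of the 103 both libraries at 30 min lay below all 3 at 10 min, which held for 31.8% of tested genes. In Xrn1-WT cells the median was -1.72, again bounded by the rule. With scaling by library size alone, which moved the median of all genes at 30 against 10 min in Xrn1-AID cells to 0.62, 69 of the 103 fell.

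By 30 min the genes had not all returned to where they began. Against 0 min in Xrn1-AID cells, 49 of the 103 were still higher, 11 were lower and 43 were not called, where 27.2% of tested genes were higher and 26.6% lower. The median log2 change was 0.65, against 2.60 over the other early genes, of which 258 were still higher. Both 30 min libraries lay above all 3 at 0 min for 57 genes and below all 3 for 20, which held for 35.1% and 34.9% of tested genes. The comparisons of the Xrn1-AID arm share groups with each other, so their counts are not independent.

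**Figure D2:**
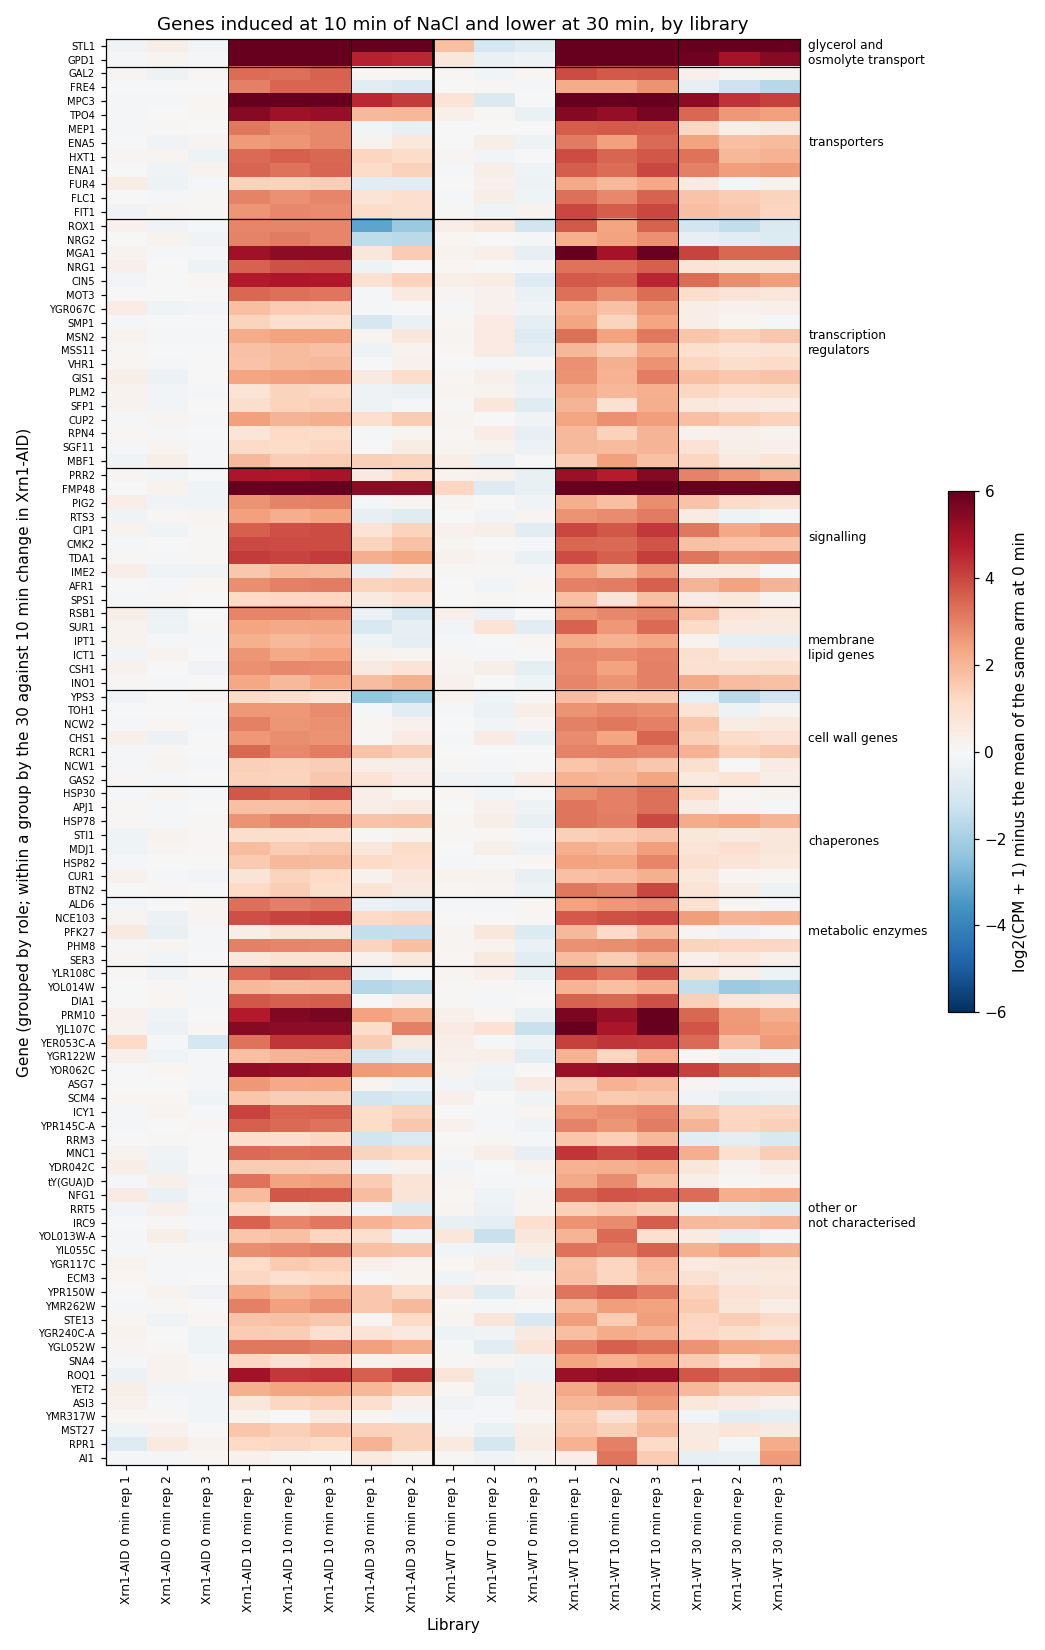
Change of each of the 103 genes (rows, grouped by role) in each of 17 libraries (columns, Xrn1-AID left of Xrn1-WT), as log2(CPM + 1) minus the mean of the same arm at 0 min, with colours saturating at 6 in either direction. The 10 min columns are red in nearly every row of both arms, and ROX1, NRG2, YPS3 and YOL014W are blue at 30 min.

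The same folds and mean applied to the Xrn1-AID groups took 95 features. Of these 65 were among the 103, which is 63.1% of the Xrn1-WT set and 68.4% of the Xrn1-AID list. In Xrn1-AID cells 78 of the 103 reached the 3-fold rise and 77 the 2-fold fall. Of the 30 features that only the Xrn1-AID groups took, 29 had risen at least 3-fold in Xrn1-WT cells too.

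STL1, which brings glycerol into the cell, had the largest log2 rise of the 103 genes in each arm (11.49 in Xrn1-AID and 8.04 in Xrn1-WT cells). The gene (YDR536W, chrIV:1508005-1509714, plus strand, genome build R64, the same as sacCer3) had 0.586, 1.37 and 0.662 CPM at 0 min, 2559, 2360 and 2533 CPM at 10 min and 353 and 527 CPM at 30 min in Xrn1-AID libraries. Xrn1-WT libraries had 17.9, 1.60 and 2.29 CPM, then 1758, 1509 and 2428 CPM, then 1071, 743 and 674 CPM. The groups of each arm did not overlap, and replicate 1 of Xrn1-WT at 0 min was the highest of its group by far. In Xrn1-AID cells STL1 rose by 11.49 ± 0.90 (log2 ± SE, adjusted p = 4.64e-08) and then fell by 2.50 ± 0.70 (adjusted p = 0.00885), a call lost without replicate 1 at 30 min (-2.24, adjusted p = 0.0818). It stayed 9.00 ± 0.85 above 0 min at 30 min (adjusted p = 2.11e-07).

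GPD1, the glycerol-3-phosphate dehydrogenase that commits carbon to glycerol (YDL022W, chrIV:411825-413000, plus strand), had the highest level of all 103 genes at 10 min, also per kilobase of coding sequence (10430 CPM per kb in Xrn1-AID and 8383 CPM per kb in Xrn1-WT cells). Its libraries held 144, 165 and 138 CPM at 0 min, 12000, 11070 and 13740 CPM at 10 min and 3706 and 3385 CPM at 30 min in Xrn1-AID cells. In Xrn1-WT cells they held 181, 85.3 and 92.1 CPM, then 9055, 10100 and 10420 CPM, then 6545, 3595 and 5036 CPM. No 2 time points of an arm overlapped. GPD1 rose by 6.37 ± 0.35 in Xrn1-AID cells (adjusted p = 1.45e-09) and fell by 1.79 ± 0.33 (adjusted p = 0.00043). Of the 10 min level, 28.9% was left at 30 min in Xrn1-AID cells and 51.3% in Xrn1-WT cells.

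Both promoters hold the letters GGGACAAA, those of the Hot1 site, and AGGGG, the stress response element bound by Msn2 and Msn4. The stretches are shown because both genes serve the supply of glycerol and hold these letters. They were read from RefSeq's R64 genome along the gene's strand, with capitals on the GGGACAAA match, which here reads on the opposite strand.
STL1 (chrIV:1507805-1507904, plus strand, 200 to 101 bases before the start codon): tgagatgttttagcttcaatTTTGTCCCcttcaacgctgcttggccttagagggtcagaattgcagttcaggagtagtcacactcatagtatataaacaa
GPD1 (chrIV:411561-411660, plus strand, 264 to 165 bases before the start codon): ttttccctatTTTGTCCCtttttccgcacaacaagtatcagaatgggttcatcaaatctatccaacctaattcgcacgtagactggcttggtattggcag
In STL1 the match shares bases with a stress response element, and GPD1 has 3 stress response elements within 500 bases before its start codon. Of 97 of the genes with a nuclear promoter in the annotation, 4 (4.12%) had GGGACAAA on either strand within 500 bases before the start codon, against 2.30% of the 261 other early genes and 1.38% of 6000 protein-coding genes.

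Roles were given to the genes with earlier results of these data known, so the size of a role is no result. Of the 103 genes 99 rose and 86 fell in Xrn1-AID cells, against 19.0% and 22.1% of all tested genes. High counts within each role below follow from the set as a whole. Of 18 transcription regulators, all rose at 10 min in Xrn1-AID cells and 17 fell at 30 min, with medians of 2.20 and -1.90 on the log2 scale. The list of 69 regulators used further below held 11 of them. MBF1, a coactivator that bridges Gcn4 and the TATA-binding protein, was the one not called lower (-0.29 ± 0.31, adjusted p = 0.473, and 0.32 with scaling by library size alone). The 2 deepest falls of all 103 genes were those of the repressors ROX1 and NRG2.

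ROX1, the heme-dependent repressor of hypoxic genes, had 54.2, 38.8 and 42.1 CPM at 0 min, 348, 344 and 346 CPM at 10 min and 4.08 and 8.85 CPM at 30 min in Xrn1-AID libraries. In Xrn1-WT libraries it had 36.9, 46.4 and 12.8 CPM, then 367, 147 and 334 CPM, then 11.96, 9.44 and 15.1 CPM. In Xrn1-AID cells the 3 time points were apart, and the 30 min libraries were the lowest. ROX1 fell by 5.73 ± 0.58 from 10 to 30 min in those cells (adjusted p = 1.29e-06) and ended 2.78 below 0 min (SE 0.50, adjusted p = 0.000207), with 1.87% of the 10 min level left. In Xrn1-WT cells 4.30% was left, and the range of the 30 min libraries overlapped that at 0 min.

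NRG1 and NRG2 encode a pair of related zinc finger repressors of glucose-repressed genes. NRG2 had 13.2, 15.2 and 11.0 CPM at 0 min, 109, 122 and 105 CPM at 10 min and 3.83 and 3.53 CPM at 30 min in Xrn1-AID libraries, against 21.5, 19.2 and 18.7 CPM, then 90.7, 111 and 139 CPM, then 13.9, 11.8 and 10.9 CPM in Xrn1-WT libraries. It fell by 4.93 ± 0.23 in Xrn1-AID cells (adjusted p = 2.47e-09) and lay 1.84 under 0 min at 30 min (log2 change -1.84 ± 0.21, adjusted p = 1.4e-06). NRG1 fell by 4.0 ± 0.22 (adjusted p = 7.28e-09) after a rise of 3.84 ± 0.18 (adjusted p = 3.42e-10). At 30 min NRG1 had 8.21 and 10.9 CPM in Xrn1-AID libraries and 29.5, 27.2 and 27.6 CPM in Xrn1-WT libraries, with no overlap between the arms. At 10 min the arms overlapped for NRG2, while the NRG1 libraries of Xrn1-AID cells (134, 161 and 165 CPM) lay just under those of Xrn1-WT cells (166, 167 and 205 CPM). Here and below, how many of all tested genes had arms that lay apart was not counted, so how unusual such a gap is cannot be told.

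CIN5, a basic leucine zipper factor of the Yap family known for a role in salt tolerance, and MGA1, a protein with a DNA-binding domain like that of heat shock factor, had the most negative differences between the arms in the change from 10 to 30 min. CIN5 had 372, 400 and 397 CPM at 10 min and 25.5 and 35.02 CPM at 30 min in Xrn1-AID libraries, against 162, 160 and 308 CPM and 130, 87.4 and 73.0 CPM in Xrn1-WT libraries. It fell by 3.69 ± 0.41 in Xrn1-AID cells (adjusted p = 2.96e-06), leaving 7.76% of the 10 min level, against 46.0% in Xrn1-WT cells. MGA1 had 102, 122 and 124 CPM at 10 min and 3.88 and 7.61 CPM at 30 min in Xrn1-AID libraries, against 124, 58.0 and 114 CPM and 30.1, 18.9 and 19.2 CPM in Xrn1-WT libraries. It rose by 5.82 ± 0.41 (adjusted p = 1.08e-08) and fell by 4.32 ± 0.44 (adjusted p = 1.27e-06) in Xrn1-AID cells. Both stayed above 0 min at 30 min (CIN5 by 1.21 ± 0.35, adjusted p = 0.00766, and MGA1 by 1.5 ± 0.41, adjusted p = 0.00559), calls that were lost without replicate 2 at 30 min (0.96, adjusted p = 0.0805, and 0.92, adjusted p = 0.148).

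Promoter stretches of 3 of these regulators are shown as examples of the stress response element, each read along the gene's strand with AGGGG or its complement CCCCT in capitals.
NRG1 (chrIV:543662-543761, minus strand): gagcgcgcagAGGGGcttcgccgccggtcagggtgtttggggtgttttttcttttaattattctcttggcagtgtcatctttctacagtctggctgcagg
NRG2 (chrII:370846-370945, minus strand): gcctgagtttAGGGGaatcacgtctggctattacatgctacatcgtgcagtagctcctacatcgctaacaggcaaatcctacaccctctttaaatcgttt
CIN5 (chrXV:384764-384863, minus strand): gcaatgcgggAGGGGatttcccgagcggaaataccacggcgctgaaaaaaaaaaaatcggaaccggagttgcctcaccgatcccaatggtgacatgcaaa

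The other regulators had smaller falls. MSN2, the zinc finger activator of the general stress response, rose by 2.35 ± 0.29 (adjusted p = 9.25e-06) and fell by 1.91 ± 0.33 (adjusted p = 0.000265) in Xrn1-AID cells. It had 70.8, 56.4 and 59.0 CPM at 0 min, 290, 331 and 330 CPM at 10 min and 68.3 and 101 CPM at 30 min, so the first and last time points overlapped. MOT3, a repressor of hypoxic and ergosterol genes, fell by 3.07 ± 0.25 (adjusted p = 1.58e-07). GIS1, a regulator of post-diauxic genes, fell by 1.65 ± 0.29 (adjusted p = 0.000285), and the MADS-box factor SMP1, a Hog1 substrate, by 1.93 ± 0.38 (adjusted p = 0.000766). SFP1, an activator of ribosomal protein genes, fell by 1.5 ± 0.36 (adjusted p = 0.00362) and RPN4, the activator of proteasome genes, by 0.96 ± 0.24 (adjusted p = 0.00487). The fall of RPN4 was no longer called without replicate 1 at 30 min (-0.85, adjusted p = 0.0552) or by library size alone (-0.35), and that of SFP1 was lost by library size alone (-0.89). The rises of RPN4, SFP1 and SMP1 were also lost by library size alone (0.71, 0.94 and 0.86).

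**Figure D3:**
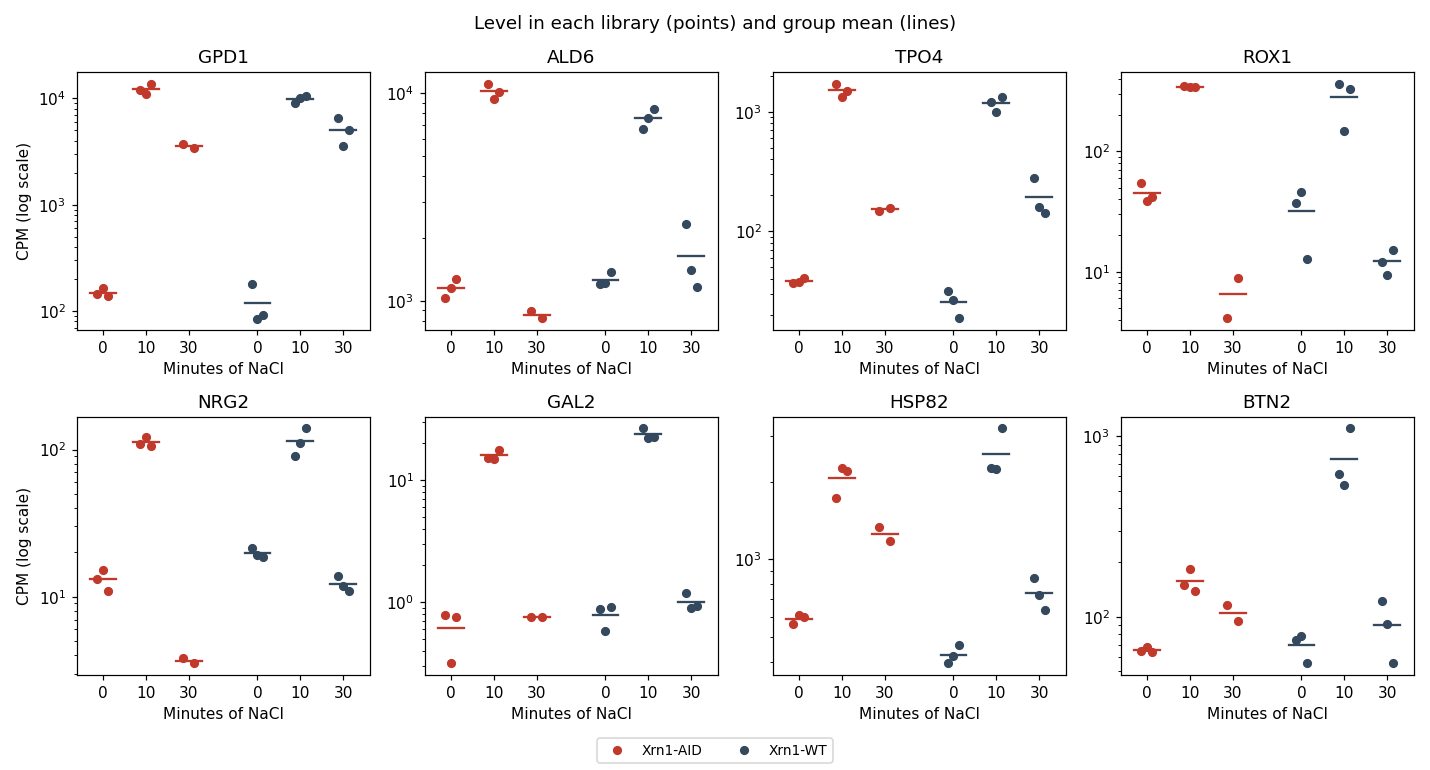
Level of 8 of the genes in each library (points, CPM on a log scale) with group means (lines), by minutes of NaCl, Xrn1-AID left of Xrn1-WT in each panel. ROX1 and NRG2 end below their 0 min level in Xrn1-AID cells, GPD1 stays above it, and BTN2 reaches 139 to 183 CPM at 10 min in Xrn1-AID and 539 to 1107 CPM in Xrn1-WT libraries.

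Of 10 signalling genes, all rose at 10 min in Xrn1-AID cells and 9 fell at 30 min, with medians of 3.44 and -2.56. FMP48, a protein with a kinase domain, had 2.85, 3.33 and 2.19 CPM at 0 min, 1593, 1702 and 1779 CPM at 10 min and 162 and 161 CPM at 30 min in Xrn1-AID libraries. Xrn1-WT libraries had 13.4, 2.52 and 3.50 CPM, then 1411, 1322 and 1978 CPM, then 714, 522 and 440 CPM. The arms overlapped at 10 min and were apart at 30 min. FMP48 rose by 9.24 ± 0.58 (adjusted p = 3.53e-09) and fell by 3.39 ± 0.52 (adjusted p = 7.59e-05) in Xrn1-AID cells.

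The other signalling genes included kinases and regulators of phosphatases and of the cell cycle. PRR2, a kinase that affects pheromone signalling, fell by 4.08 ± 0.34 (adjusted p = 1.69e-07), leaving 5.88% of its 10 min level in Xrn1-AID and 17% in Xrn1-WT cells. PIG2, a putative regulatory subunit of the Glc7 phosphatase, had 49.6, 61.6 and 62.3 CPM at 10 min and 6.29 and 7.64 CPM at 30 min in Xrn1-AID libraries, against 43.9, 34.0 and 68.1 CPM and 31.6, 21.5 and 18.0 CPM in Xrn1-WT libraries. It fell by 3.05 ± 0.33 (adjusted p = 2.51e-06). CMK2, a calmodulin-dependent kinase and calcineurin target, rose by 3.97 ± 0.15 (adjusted p = 1.38e-10) and fell by 2.40 ± 0.17 (adjusted p = 4.35e-08). SPS1, a meiotic kinase, was the one not called lower (-0.64 ± 0.29, adjusted p = 0.0938). IME2, another meiotic kinase, averaged 8.72 CPM at 0 min, 33.4 CPM at 10 min and 9.09 CPM at 30 min in Xrn1-AID cells, and SPS1 averaged 2.66, 7.69 and 4.94 CPM. Of the other meiotic genes looked up, IME1, SPO11, SPO13 and NDT80 averaged 3.31 CPM or less at each time in that arm, and SPS4 averaged 15.7, 5.26 and 1.53 CPM.

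Transporters and surface proteins of uptake rose in 11 of 11 and fell in 11 of 11 in Xrn1-AID cells, with medians of 3.40 and -2.26. GAL2, the galactose permease, was low throughout and fell almost to where it began: it had 0.782, 0.317 and 0.764 CPM at 0 min, 15.2, 15.0 and 17.5 CPM at 10 min and 0.755 and 0.761 CPM at 30 min in Xrn1-AID libraries. Xrn1-WT libraries had 0.882, 0.583 and 0.909 CPM, then 26.3, 21.9 and 22.3 CPM, then 1.20, 0.899 and 0.925 CPM. The 10 min libraries were apart from both other times in each arm. It fell by 4.38 ± 0.32 in Xrn1-AID cells (adjusted p = 5.84e-08). FRE4, a ferric reductase, fell by 4.22 ± 0.32 (adjusted p = 8.15e-08) and ended under its 0 min level by 0.82 (SE 0.28, adjusted p = 0.0209). The latter call was lost without replicate 1 or replicate 2 at 30 min (-0.90 and -0.74) and by library size alone (-0.54).

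HXT1, the low-affinity glucose transporter, was the most abundant of the transporters. It had 467, 475 and 335 CPM at 0 min, 4416, 5085 and 4618 CPM at 10 min and 1045 and 917 CPM at 30 min in Xrn1-AID libraries, against 405, 324 and 353 CPM, then 5351, 4107 and 4803 CPM, then 3440, 1425 and 1548 CPM in Xrn1-WT libraries. The arms overlapped at 0 and 10 min and did not at 30 min. HXT1 rose by 3.47 ± 0.31 (adjusted p = 1.84e-07) and fell by 2.26 ± 0.34 (adjusted p = 6.58e-05) in Xrn1-AID cells. MPC3, a subunit of the mitochondrial pyruvate carrier, rose by 8.10 ± 0.50 (adjusted p = 3.19e-09) and fell by 3.32 ± 0.46 (adjusted p = 3.25e-05), leaving 10.0% of its 10 min level in Xrn1-AID and 23.3% in Xrn1-WT cells.

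Other carriers served polyamines, ammonium, uracil and sodium. The polyamine exporter TPO4 had 1719, 1332 and 1490 CPM at 10 min and 148 and 158 CPM at 30 min in Xrn1-AID libraries, against 1201, 999.8 and 1331 CPM and 281, 159 and 142 CPM in Xrn1-WT libraries, with the arms overlapping at 30 min. It fell by 3.31 ± 0.30 in Xrn1-AID cells (adjusted p = 5.09e-07). The ammonium permease MEP1 fell by 3.27 ± 0.24 (adjusted p = 5.15e-08) and the uracil permease FUR4 by 2.1 ± 0.25 (adjusted p = 5.52e-06). FUR4 ended 0.70 below 0 min (SE 0.23, adjusted p = 0.0185). That call was lost without replicate 1 at 0 min (-0.44), without replicate 1 or 2 at 30 min (-0.73 and -0.68) and by library size alone (-0.44). The sodium pump genes ENA1 and ENA5 fell by 2.18 ± 0.26 and 2.26 ± 0.29 (adjusted p = 5.73e-06 and 1.19e-05), but 88.5% and 91.2% of their stretches of 50 bases, the read length, occur elsewhere in the genome, so their counts cannot be assigned to 1 copy with certainty.

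TPO4 and MEP1 each have a pair of stress response elements close together, shown in capitals along the gene's strand.
TPO4 (chrXV:836680-836779, minus strand): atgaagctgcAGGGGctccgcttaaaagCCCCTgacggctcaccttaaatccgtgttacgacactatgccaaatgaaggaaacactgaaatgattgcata
MEP1 (chrVII:733256-733355, minus strand): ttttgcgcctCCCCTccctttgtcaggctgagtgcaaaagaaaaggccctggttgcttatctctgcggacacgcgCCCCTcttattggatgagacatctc

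Membrane lipid genes were genes of sphingolipid and phospholipid synthesis, and RSB1. Of 6, all rose and 5 fell in Xrn1-AID cells, with medians of 2.40 and -2.39. RSB1, a transporter-like protein of sphingoid base release, fell most: it had 37.4, 36.9 and 35.5 CPM at 10 min and 2.97 and 1.63 CPM at 30 min in Xrn1-AID libraries, against 34.97, 41.3 and 45.7 CPM and 17.6, 8.95 and 7.89 CPM in Xrn1-WT libraries. The arms overlapped at 10 min and not at 30 min. Its fall in Xrn1-AID cells was 4.01 ± 0.40 on the log2 scale (adjusted p = 1.14e-06). IPT1, the inositolphosphotransferase of sphingolipid synthesis, fell by 2.49 ± 0.22 (adjusted p = 2.89e-07), and ICT1, a lysophosphatidic acid acyltransferase, by 2.29 ± 0.17 (adjusted p = 8.15e-08). INO1, the inositol-3-phosphate synthase, was not called lower (-0.20 ± 0.21, adjusted p = 0.46): 86.9% of its 10 min level was left in Xrn1-AID cells, against 51.6% in Xrn1-WT cells.

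All 7 cell wall genes rose and fell in Xrn1-AID cells, with medians of 2.69 and -2.42. YPS3, a yapsin protease of the cell surface, had 35.7, 42.5 and 46.5 CPM at 0 min, 93.3, 85.1 and 69.1 CPM at 10 min and 7.60 and 9.30 CPM at 30 min in Xrn1-AID libraries, so the 30 min libraries were the lowest of the arm. It fell by 3.28 ± 0.29 (adjusted p = 3.68e-07) after a rise of 0.99 ± 0.23 (adjusted p = 0.00258), and the rise was lost by library size alone (0.67). It lay 2.29 under 0 min (log2 change -2.29 ± 0.28, adjusted p = 3.64e-06). NCW2, a wall protein anchored by glycosylphosphatidylinositol, fell by 2.60 ± 0.31 (adjusted p = 5.96e-06) and CHS1, a chitin synthase, by 2.42 ± 0.34 (adjusted p = 3.56e-05). NCW1, a related wall protein, fell by 1.04 ± 0.23 (adjusted p = 0.00169), which was lost by library size alone (-0.43).

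Among metabolic enzymes, 4 of 5 rose and 4 of 5 fell in Xrn1-AID cells. ALD6, the cytosolic acetaldehyde dehydrogenase that supplies acetate and NADPH, had 1026, 1150 and 1272 CPM at 0 min, 11140, 9404 and 10160 CPM at 10 min and 891 and 821 CPM at 30 min in Xrn1-AID libraries. Xrn1-WT libraries had 1204, 1219 and 1370 CPM, then 6733, 7640 and 8380 CPM, then 2349, 1405 and 1165 CPM. At 10 min the Xrn1-AID libraries were all above the Xrn1-WT ones, and at 30 min all below. ALD6 fell by 3.58 ± 0.30 in Xrn1-AID cells (adjusted p = 2.12e-07), leaving 8.37% against 21.6% in Xrn1-WT cells. NCE103, the carbonic anhydrase, fell by 2.80 ± 0.21 (adjusted p = 6.34e-08), and 14.3% was left in Xrn1-AID and 33.4% in Xrn1-WT cells.

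Chaperones had the smallest median rise and fall in Xrn1-AID cells. In Xrn1-WT cells their medians were 2.9 and -1.71, larger than those of transcription regulators (2.58 and -1.46). All 8 rose in Xrn1-AID cells and 7 fell, but the medians were 1.74 and -0.82, the smallest of any group, and 56.5% of the 10 min level was left, against 30.7% in Xrn1-WT cells. With scaling by library size alone, HSP78, MDJ1, STI1, HSP82 and CUR1 were no longer called lower, which left APJ1 and HSP30. For 7 of the 8 the fall was smaller in Xrn1-AID than in Xrn1-WT cells, with HSP30 the exception. BTN2, a sequestrase of misfolded protein, had 64.4, 68.3 and 63.8 CPM at 0 min, 150, 183 and 139 CPM at 10 min and 116 and 94.4 CPM at 30 min in Xrn1-AID libraries. In Xrn1-WT libraries it had 74.7, 78.1 and 55.2 CPM, then 615, 539 and 1107 CPM, then 123, 91.0 and 55.1 CPM. The arms were apart at 10 min and overlapped at 0 and 30 min. BTN2 rose by 1.26 ± 0.28 in Xrn1-AID cells (adjusted p = 0.00209), and its 30 min value was not called lower than that at 10 min (-0.58 ± 0.31, adjusted p = 0.153), although it was when only the groups of that arm entered the fit (-0.57, adjusted p = 0.0124).

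APJ1, a cytosolic J-protein, had 99.1, 98.2 and 106 CPM at 10 min and 37.3 and 40.3 CPM at 30 min in Xrn1-AID libraries, against 218, 190 and 235 CPM and 32.5, 25.3 and 21.5 CPM in Xrn1-WT libraries. It fell by 1.38 ± 0.19 in Xrn1-AID cells (adjusted p = 2.52e-05). HSP82, the heat-inducible cytosolic Hsp90, had 562, 608 and 597 CPM at 0 min, 1737, 2268 and 2201 CPM at 10 min and 1340 and 1175 CPM at 30 min in Xrn1-AID libraries, against 395, 421 and 466 CPM, then 2270, 2234 and 3220 CPM, then 845, 730 and 638 CPM in Xrn1-WT libraries. At 30 min the Xrn1-AID libraries were the higher and did not overlap those of Xrn1-WT. HSP82 fell by 0.72 ± 0.21 (adjusted p = 0.0114), a call lost without replicate 2 at 30 min (-0.63, adjusted p = 0.0951) and by library size alone (-0.12), and stayed 1.09 ± 0.20 above 0 min (adjusted p = 0.000248). About 6.39% of its stretches of 50 bases occur elsewhere in the genome.

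HSP78, the mitochondrial disaggregase, rose by 2.88 ± 0.24 (adjusted p = 1.17e-07) and fell by 1.12 ± 0.26 (adjusted p = 0.00284). STI1, a cochaperone of Hsp90 and Hsp70, rose by 1.02 ± 0.15 (adjusted p = 7.29e-05) and fell by 0.88 ± 0.18 (adjusted p = 0.000818). Both falls were lost by library size alone (-0.52 and -0.27). HSP30, a heat shock protein of the plasma membrane, was the one chaperone with a deep fall, by 3.80 ± 0.35 (adjusted p = 4.71e-07), and left 7.19% in Xrn1-AID and 15.1% in Xrn1-WT cells.

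The heat shock element, searched on both strands as TTC, GAA and TTC in turn with 2 bases of any kind between them, was in the 500 bases before 4 of 97 of the genes (4.12%), against 4.21% of the other early genes and 1.48% of 6000 protein-coding genes. All 4 had it more than once within that window: STI1, HSP78, BTN2 and the regulator RPN4. The stretches of the chaperones are shown in their gene's strand with the matches, which overlap in BTN2 and HSP78, in capitals.
BTN2 (chrVII:772100-772199, plus strand): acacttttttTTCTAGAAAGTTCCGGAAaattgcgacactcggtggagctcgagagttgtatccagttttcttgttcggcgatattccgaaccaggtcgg
HSP78 (chrIV:974401-974500, minus strand): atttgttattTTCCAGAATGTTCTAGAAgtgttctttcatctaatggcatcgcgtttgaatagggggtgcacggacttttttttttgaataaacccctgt
STI1 (chrXV:380801-380900, plus strand): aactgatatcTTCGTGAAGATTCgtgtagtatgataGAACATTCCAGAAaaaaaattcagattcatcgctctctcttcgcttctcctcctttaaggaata

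The remaining 36 features were genes of other roles or without a described one. Of these 33 rose and 24 fell in Xrn1-AID cells, with medians of 2.56 and -1.55. YLR108C, not characterised, fell by 3.89 ± 0.39 (adjusted p = 1.22e-06). YJL107C rose by 5.47 ± 0.72 (adjusted p = 1.72e-05) and fell by 3.06 ± 0.75 (adjusted p = 0.00398), a call lost without replicate 1 at 30 min (-2.40, adjusted p = 0.0518), where its libraries held 30.7 and 117 CPM. It lies beside PRM10, with which its coding region overlaps only at chrX:218853-218856, so reads across that short stretch cannot be assigned to one of them. ROQ1, which redirects the ubiquitin ligase Ubr1 under stress, rose by 4.86 ± 0.35 (adjusted p = 1.83e-08) and was not called lower at 30 min (-0.71 ± 0.33, adjusted p = 0.102).

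Several of the 17 genes not called lower were low or noncoding features. YMR317W stood at 2.59, 2.01 and 3.38 CPM at 10 min in Xrn1-AID libraries and at 9.42, 5.48 and 10.8 CPM in Xrn1-WT libraries, and its change from 10 to 30 min in Xrn1-AID cells was -0.38 ± 0.34 (adjusted p = 0.394; 0.22 by library size alone). RPR1, the RNA of RNase P, had 14.8, 15.4 and 13.8 CPM at 10 min and 28.4 and 16.1 CPM at 30 min in Xrn1-AID libraries, against 33.1, 64.1 and 17.01 CPM and 11.3, 6.83 and 37.3 CPM in Xrn1-WT libraries. AI1, an intron product of mitochondrial COX1, was at 0.554 CPM or lower in every Xrn1-AID library and reached 22.2 CPM in Xrn1-WT replicate 2 at 10 min and 14.1 CPM in replicate 3 at 30 min. Those 2 libraries also had the highest share of mitochondrial counts (0.00275% and 0.0044%) and of counts to noncoding RNA (0.115% and 0.268%), whose part in the result was not tested. AI1 is itself counted in the mitochondrial share and RPR1 in the noncoding share, so these shares are not separate information. The tyrosine transfer RNA gene tY(GUA)D rose by 4.66 ± 0.53 (adjusted p = 3.61e-06) and fell by 1.98 ± 0.51 (adjusted p = 0.00538), lost without replicate 2 at 30 min (-1.55, adjusted p = 0.0735), and reads of transfer RNA genes can come from several copies.

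The arms are set side by side as a description, since Xrn1-WT libraries chose the genes. A median of 24.9% of the 10 min level was left at 30 min in Xrn1-AID cells, against 30.4% in Xrn1-WT cells. Less was left in Xrn1-AID than in Xrn1-WT cells for 62 genes, and as much or more for 41. At or under 25% of the 10 min level was left for 52 genes in Xrn1-AID and 41 in Xrn1-WT cells. The difference in the log2 change at 30 against 10 min, Xrn1-AID minus Xrn1-WT, had a median of -0.19, against -0.40 over the other early genes and -0.09 over all tested genes. The median of the set ran from -0.36 to -0.12 when single libraries were left out.

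The 6 most negative differences were those of CIN5 (-2.57), MGA1 (-2.2), RSB1 (-2.19), PIG2 (-2.01), FMP48 (-1.9) and NRG2 (-1.71). The most positive were those of BTN2, AI1, YMR317W, RPR1, APJ1 and tY(GUA)D, among them 2.49 for BTN2, 2.02 for YMR317W and 1.64 for APJ1. For BTN2 and APJ1 the rise in Xrn1-AID minus that in Xrn1-WT cells was -2.18 and -1.37. STL1 had the largest positive difference in the rise (3.45), and without replicate 1 of Xrn1-WT at 0 min its rise in Xrn1-WT cells was 9.92 in place of 8.04.

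**Figure D4:**
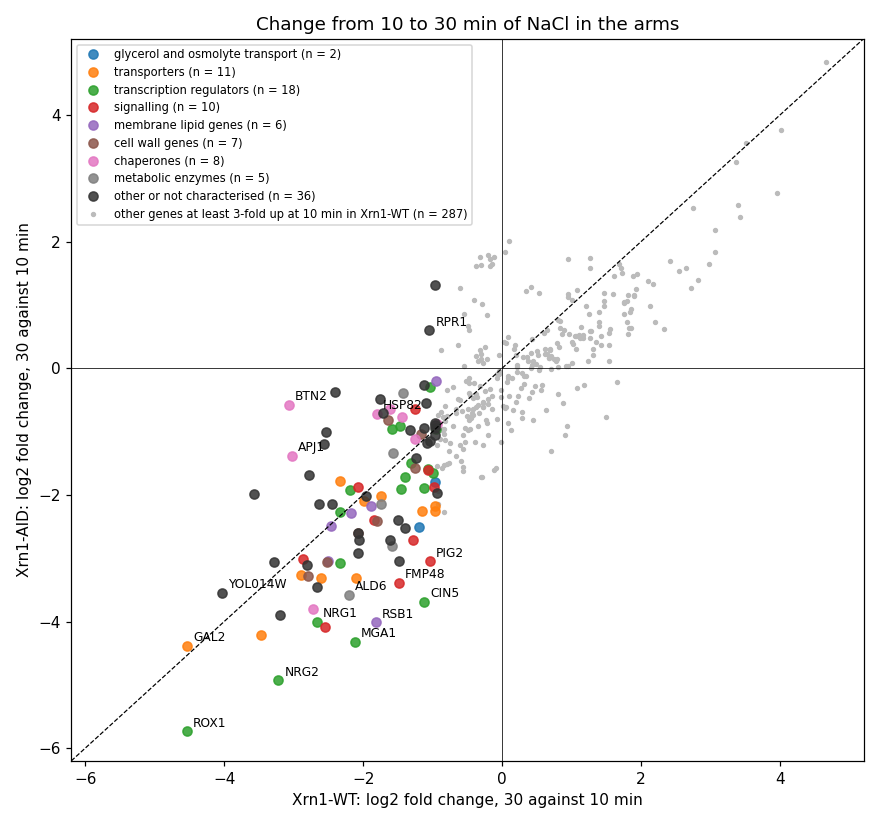
Log2 change at 30 against 10 min in Xrn1-AID cells (vertical) and Xrn1-WT cells (horizontal) for the 103 genes, coloured by role, and for 287 other genes at least 3-fold up at 10 min in Xrn1-WT cells (grey). The dashed line marks equal change: transcription regulators and signalling genes lie mostly below it, as do most grey points, and 7 of 8 chaperones lie above it.

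By role, the fall was deeper in Xrn1-AID cells for 12 of 18 transcription regulators, 8 of 10 signalling genes, 9 of 11 transporters and 5 of 7 cell wall genes. Over the other early genes this difference had a median of -0.40 and an upper quartile of -0.04. Most of those genes thus also had the lower change in Xrn1-AID cells. Over all tested genes the median was -0.09 and the upper quartile 0.31. For signalling genes a median of 17% of the 10 min level was left in Xrn1-AID and 38.4% in Xrn1-WT cells. For transcription regulators the medians were 26.8% and 36.4%, and for transporters 20.9% and 23.3%.

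In levels, at 30 min 72 of the 103 genes were lower in Xrn1-AID than in Xrn1-WT cells. At 10 min 56 were lower in Xrn1-AID cells, and before salt 40 were. The median log2 difference between the arms at 30 min was -0.35, against -0.21 over the other early genes and 0.04 over all tested genes. At 10 min these medians were -0.04, 0.27 and 0.09, and before salt 0.2, 0.09 and -0.02. Over the 103 genes the log2 changes at 30 against 10 min of the arms correlated at Pearson's r = 0.61 and Spearman's rho = 0.56, and those at 10 against 0 min at 0.93 and 0.89. Genes are not independent replicates, and the rule bounded the Xrn1-WT side.

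Membership depended on the rule's edges. Just inside the rise lay STI1 (3.08-fold), PFK27 (3.14) and SCM4 (3.23), and just outside FSH1 (2.99), YGK3 (2.94) and HSP150 (2.90). Just inside the fall, as the 10 min mean over the 30 min mean, lay NFG1 (2.00), STI1 (2.01) and STE13 (2.01), and just outside OSH2 (1.99), YDR133C (1.99) and ENA2 (1.97). A further 90 features met both folds at an overall mean under 50. When each Xrn1-WT library was left out in turn, 72 of the 103 stayed in the set every time, and in Xrn1-AID cells 72 of these rose and 65 fell. GPD1, HXT1, CIN5, ENA1, HSP78, STI1 and MBF1 were among the 31 that did not stay.

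Promoters of the set held fewer stress response elements than those of the other early genes. AGGGG, on either strand within 500 bases before the start codon, was in 50 of 97 promoters (51.5%), against 209 of 261 (80.1%) of the other early genes and 34.1% of 6000 protein-coding genes. A pair or more was in 17.5% of the set, 45.2% of the other early genes and 8.13% of all. In the window from 250 bases before to 50 after the start codon the shares were 27.8%, 55.6% and 21.6%. Within the set, the 50 genes with a match had median log2 changes of 3.04 at 10 against 0 min and -2.45 at 30 against 10 min in Xrn1-AID cells, and the 47 without had 2.28 and -1.97.

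**Figure D5:**
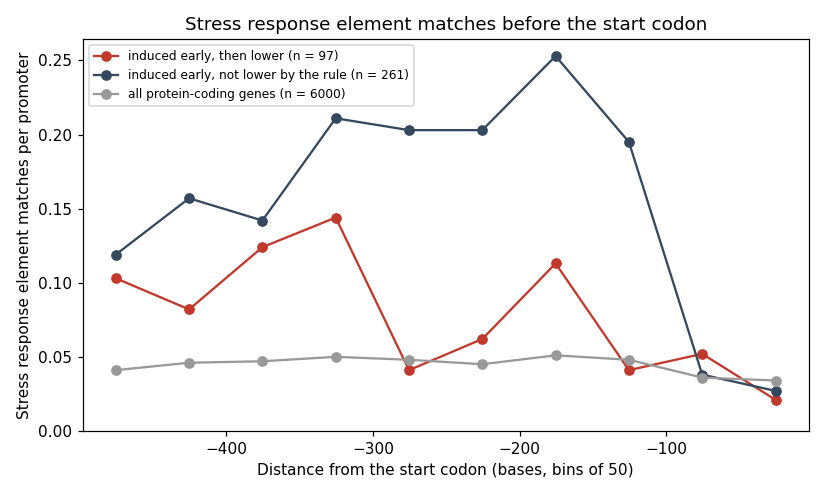
Matches to AGGGG on either strand per promoter, in bins of 50 bases, by distance from the start codon (bases) for 97 genes of the set, the 261 other early genes and 6000 protein-coding genes. The other early genes reach 0.253 matches per promoter between 200 and 151 bases before the start codon, where the set has 0.113 and all genes 0.051.

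Other sites were closer between the early groups. TGACGT, the core of the element bound by Sko1 (CRE), was in 21.6% of the set, 19.5% of the other early genes and 13.5% of all. TATAAA was in 70.1%, 66.7% and 60.5%, and TTACTAA, a site of the Yap family, in 14.4%, 11.9% and 11.8%. GGTGGCAAA, the site of Rpn4, was in none of the 97, in 3.45% of the other early genes and in 1.65% of all. NCE103 is shown for its palindromic CRE, TGACGTCA, in capitals, which the search counted on both strands.
NCE103 (chrXIV:559519-559618, plus strand): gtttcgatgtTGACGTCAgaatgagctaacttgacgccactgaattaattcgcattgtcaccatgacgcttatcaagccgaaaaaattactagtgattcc
A match is a run of letters and not a site shown to be bound.

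The genes were spread over 15 chromosomes, counting the mitochondrial one, which held only AI1. Of the nuclear protein-coding genes, 13 of 97 (13.4%) had another gene of the set as direct neighbour, in 7 pairs, against 20.7% of the other early genes. The pairs included FIT1 with STL1, NRG1 with YDR042C, and STI1 with CIN5. Coding regions had a median length of 1344 bases, against 1098 bases for the other early genes and 1227 bases for all tested protein-coding genes.

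Gene lists were written from textbook knowledge, with earlier results of these data known, so their shares are a description. Of these lists, that of Hsf1 chaperone genes gave the largest share to the set: 8 of 36 (22.2%). Over all tested features the set took 103 of 6195. The list of Hog1 osmostress effectors gave 6 of 34 (17.6%) and that of transcription regulators 11 of 69 (15.9%). The Msn2 and Msn4 list of general stress genes gave 2 of 78 (2.56%), and 70 of the 78 rose at 10 min in Xrn1-AID cells. Of all tested genes 19.0% rose at 10 min in that arm, and 19.8% rose and 22.1% fell at 30 against 10 min. At 30 against 10 min 36 of the 78 rose and 7 fell, with a median of 0.63, against 3 up, 16 down and a median of -0.50 for the 36 Hsf1 genes. Of the Hog1 effectors 9 rose and 9 fell, with a median of -0.37. Among 22 calcineurin targets of Crz1, 3 were in the set (CMK2, ENA1 and ENA5) and 11 fell. The drug resistance and membrane pump list gave 4 of 31 (ICT1, IPT1, RSB1 and TPO4). Oxidative stress and thiol genes (39), mRNA decay and translation control genes (67) and arrestins and ubiquitin-ligase adaptors (30) gave none. At the share over all tested features, none in a list of such a size says little. Of the 103 genes 39 were in a list and 64 in none.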

How the data were processed

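Poly(A)-selected RNA of 17 libraries was sequenced in single reads of 50 bases with a stranded kit, per the labels' protocols. The authors deposited raw counts of reads for each feature. Named in the submitters' processing notes are the build sacCer3 and the tools featureCounts 1.5.1, TopHat2 2.1.0 and DESeq2 1.22.2. Their roles, the strand setting of the counting and the treatment of reads with several alignments are not given in the sources used here, so counts of near-identical or overlapping genes are uncertain.

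From the counts, members were found by the stated rule with DESeq2 1.42.0 size factors. Tests used the quasi-likelihood method of edgeR 4.0.16 under R 4.3.3 (filterByExpr, TMM, glmQLFit with robust estimation, 1 mean for each of 6 groups, all 17 libraries), with p-values adjusted within a contrast over 6195 features and called under 0.05. For the set, only contrasts within the Xrn1-AID arm count as tests, and for tY(GUA)D none does. The SE of a log2 change is its size over the square root of F. CPM are TMM-scaled. A count of 0 allows up to 3 counts, or 0.0986 to 0.215 CPM by library, for counting error only. The script was tested on simulated data. No 2 libraries of a group agreed within sampling noise.

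Members, lists and roles were chosen with earlier results of these data known. Named genes were the 10 with the highest level at 10 min in Xrn1-WT cells, the 10 with the deepest fall and the 6 with the largest rise in Xrn1-AID cells, the 6 at either end of the difference between arms, list members and those beside a threshold; any other was named for its role. Promoters were read from RefSeq's R64 genome, the same build as sacCer3, and the window of 500 bases was added after the data were seen. Of the features, 6048 matched a RefSeq entry, and 99 of the 103. Alternatives were other scalings, filters, DESeq2's test, the arm alone, a replicate block, leaving out each library, and other limits in the rule.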

Additional observations from a re-analysis of the deposited data

Results flagged for a closer look

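In PLM2, RSB1 and MEP1 every Xrn1-AID library at 30 min lay below those at 0 min, while every Xrn1-WT library at 30 min lay above those at 0 min. The first of these held for 34.9% of all tested genes. How many of all tested genes had both was not counted, so how unusual the pattern is cannot be told. The difference between the arms was not tested for these genes, since Xrn1-WT libraries chose them. PLM2, a DNA-binding protein with a forkhead-associated domain, averaged 10.7 CPM at 30 min and 14.2 CPM at 0 min in Xrn1-AID cells, a ratio of 0.754, and 23.8 and 10.7 CPM in Xrn1-WT cells, a ratio of 2.22. RSB1, the transporter-like protein of sphingoid base release, averaged 2.30 and 4.16 CPM in Xrn1-AID cells (ratio 0.553) and 11.5 and 4.80 CPM in Xrn1-WT cells (ratio 2.40). MEP1, the ammonium permease, averaged 39.8 and 49 CPM in Xrn1-AID cells (ratio 0.812) and 49.9 and 28.6 CPM in Xrn1-WT cells (ratio 1.74). Within the Xrn1-AID arm none of the 3 was called by edgeR's test at 30 against 0 min.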

How the results depend on the processing

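In Xrn1-AID cells the number of the 103 genes that rose at 10 min was 89 to 100 over all alternatives, the number that fell at 30 min 69 to 92 and the number above 0 min at 30 min 39 to 55. With scaling by library size alone, the median log2 change in Xrn1-WT cells was 2.46 at 10 against 0 min and -0.86 at 30 against 10 min, the median difference between the arms was -0.40, and BTN2 (0.02), MBF1 (0.32) and YMR317W (0.22), none of them called, changed sign at 30 against 10 min in Xrn1-AID cells. That scaling moved the median of all genes to -0.36 at 10 min and to 0.62 at 30 against 10 min in Xrn1-AID cells. A fall of at least 3-fold in the rule left 58 genes. Leaving out 1 library at a time gave 97 to 99 genes rising, 80 to 85 falling and 39 to 47 above 0 min at 30 min in Xrn1-AID cells, medians of 2.78 to 2.93 and -1.84 to -1.55 in Xrn1-WT cells, 91 to 116 genes by the rule, a median arm difference of -0.36 to -0.12, and 1724 to 1879, 1974 to 2466 and 2773 to 3125 calls over all genes. Fits without 1 of the 2 Xrn1-AID libraries at 30 min assume that the lone library varied like the other groups. Low features and 2 libraries at 30 min limit the Xrn1-AID calls.

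With a replicate block from the numbers in the descriptions, 99, 85 and 46 of the genes were called in Xrn1-AID cells, and the medians in Xrn1-WT cells were 2.91 and -1.74. The deviations of same-numbered libraries from their group means correlated at 0.3 between 30 and 0 min in Xrn1-AID cells for number 3 and at 0.1 between 10 and 0 min in Xrn1-WT cells for number 1. The other pairs checked had negative values, down to -0.74, so the numbers were not taken as pairs.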
